A study of Rattus norvegicus with 34 samples.

Results

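The 6 transcripts described here, Mt-nd1, Mt-nd2, Mt-nd3, Mt-nd4l, Mt-nd4 and Mt-nd5, encode the complex I subunits whose messengers come from the heavy strand of the mitochondrial genome. They were chosen by identifier and name and made up 6 of the 31196 transcripts in the files. In the order of the genes along the genome, their identifiers were ENSRNOT00000047550.4 (Mt-nd1), ENSRNOT00000040993.4 (Mt-nd2), ENSRNOT00000041241.3 (Mt-nd3), ENSRNOT00000044582.3 (Mt-nd4l), ENSRNOT00000042928.3 (Mt-nd4) and ENSRNOT00000048767.3 (Mt-nd5). The names belong to these identifiers by the rule that chose them, since the files list identifiers without gene names. Genome positions and sequences were not used here.

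Complex I (NADH:ubiquinone oxidoreductase) is the entry point of the mitochondrial respiratory chain: it takes electrons from NADH, passes them to ubiquinone and pumps protons out of the matrix. Most of its subunits are encoded in the nucleus and imported, whereas a small hydrophobic core of the membrane arm is encoded in mitochondrial DNA. The heavy-strand genes are transcribed together as long precursors, which are cut at the transfer RNAs between them, so that the levels of the mature messengers then depend on processing and decay as well as on transcription. Mt-nd4l and Mt-nd4 stay together on a single messenger. In neurons, respiration supplies much of the ATP that ion pumping and synaptic transmission need.

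The RNA came from the hippocampus of male Sprague Dawley rats that entered the study at postnatal day (PN) 26 to 28. In Experiment 1, 7 SUG rats drank an 11% solution of sugars (65% fructose, 35% glucose) and 7 CTL rats had a second bottle of water. In Experiment 2, all rats were gavaged for 7 days: 7 ABX-PARA and 6 ABX-SAL rats with vancomycin at 50 mg/kg plus neomycin and metronidazole, both at 100 mg/kg, and ampicillin at 1 mg/mL in what they drank, and 7 SAL-SAL rats with saline. Gavage with Parabacteroides distasonis and Parabacteroides johnsonii in equal parts began 36 h after the antibiotics in ABX-PARA rats, whereas ABX-SAL rats then received saline. Bacteria were thus given only to rats that had also had antibiotics, and the groups of Experiment 2 were killed at PN 83. The age of the Experiment 1 rats is uncertain, since the labels give treatment until PN104, whereas the study itself gives an earlier day for this tissue in the sugar experiment, at which these rats would have been younger and not older than those of Experiment 2. The design text of the series differs from the labels used here, in that it names sucrose in place of glucose and a longer course of saline in SAL-SAL rats. The labelled tissue was not checked against marker genes, as the identifiers carried no names.

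Each rat was a separate library with 14394530 to 22332725 reads assigned to transcripts (median 16334170). The numbers in the library labels put 10 rats in a first set (numbers 1 to 11) and 24 in a second set (12 to 36), and every group had rats in both sets. What the sets stand for is not given in the labels. The difference between the sets is reported for each transcript beside the treatment comparisons. CTL rat 5 had the deepest library and ABX-PARA rat 8 the highest summed level of the 6 transcripts.

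Together the 6 transcripts took 3.75% ± 0.348 (SD, n = 34) of all assigned reads, from 3.10% in ABX-PARA rat 7 to 4.68% in ABX-PARA rat 8. The share was 3.54% ± 0.174 in SUG rats (n = 7) and 3.83% ± 0.300 in CTL rats (n = 7). It was 3.88% ± 0.478 in ABX-PARA rats (n = 7), 3.74% ± 0.418 in ABX-SAL rats (n = 6) and 3.73% ± 0.302 in SAL-SAL rats (n = 7). SUG rats had the lowest mean and the smallest spread, and the ranges of all groups overlapped. The highest mean, that of ABX-PARA rats, rested on ABX-PARA rat 8, without which it was 3.75% ± 0.355 (n = 6), below that of CTL rats. In whole tissue, fewer cells of a type and less RNA per cell cannot be told apart.

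Levels are given as CPM, the count scaled to a library of 1e6 assigned reads, and levels of different genes are compared per length, first per kilobase of annotated transcript. The order along the precursor was not an order of level. Mt-nd1, which sits where the membrane arm meets the matrix arm, had the highest level per kilobase, 9083 ± 853 CPM per kb (SD, n = 34, as for the next values). Mt-nd4l and Mt-nd4, which share a messenger, had 7640.1 ± 804 and 7542 ± 795 CPM per kb, close to the 7263 ± 766 of Mt-nd2. Mt-nd5, the subunit at the far end of the membrane arm, had 4162 ± 422 CPM per kb, and Mt-nd3, a small subunit near the ubiquinone site, 2736 ± 367 CPM per kb. All 6 took many reads: by mean CPM, which is a share of reads and not a level per length, Mt-nd4 ranked 2 and Mt-nd1 6 of 31196, and the lowest, Mt-nd3, ranked 79.

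**Figure D1:**
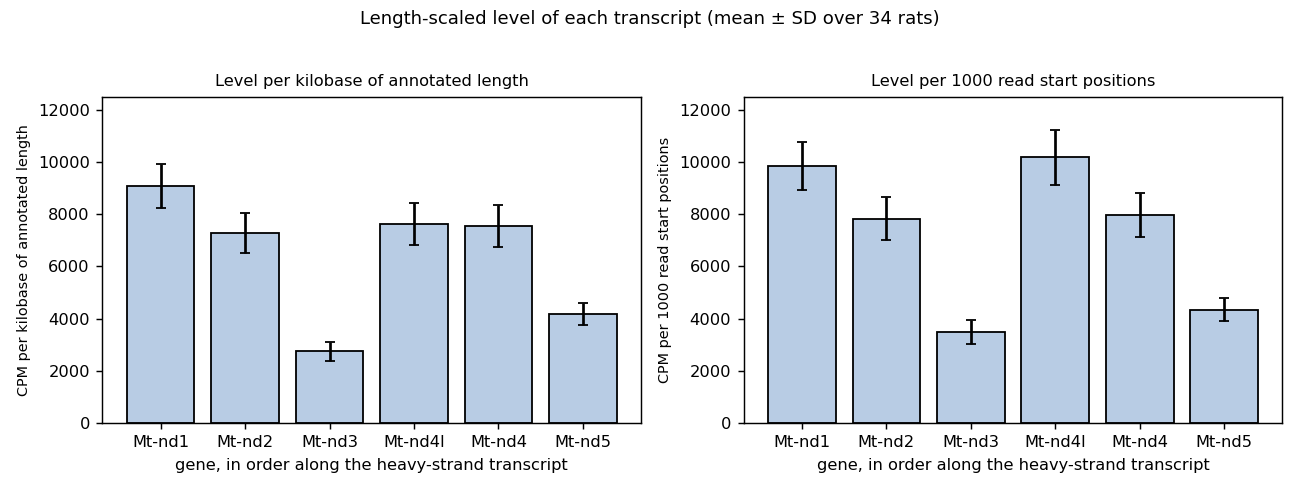
Level of each transcript per kilobase of annotated length (left) and per 1000 positions at which a 75-base read can start (right), in CPM, as mean (bars) and SD (whiskers) over 34 rats. Mt-nd3 and Mt-nd5 are the lowest on both scales, and Mt-nd4l moves from 7640.1 to 10175 between them.

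The short members depend on how length is counted. Mt-nd4l (297 bases) and Mt-nd3 (348 bases) offer fewer positions at which a read can start than their length. Per 1000 start positions, a scale added after the data were seen, Mt-nd4l had 10175 ± 1071 CPM and led Mt-nd1 with 9846 ± 925, while Mt-nd3 stayed lowest at 3475 ± 466.5. The equality of Mt-nd4l and Mt-nd4 per kilobase thus held for 1 of the scales: per start position Mt-nd4 had 7970.4 ± 840 CPM. Mt-nd4l was also the member whose reads the quantifier had to share out. Its count was a whole number in 1 of 34 rats, against 34 of 34 for each of the other 5, and its sum with a second transcript of 267 bases (ENSRNOT00000084749.1) was whole within 0.002 in 34 of 34 rats. That transcript held between 0% and 1.34% of the joint count (median 0.300%).

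Counts per rat ran from 11964 to 19811 for Mt-nd3 and from 133566 to 237111 for Mt-nd4. Counting error, as the root mean square over rats of the error from each rat's count, was 0.799% for Mt-nd3 and 0.241% for Mt-nd4. The coefficients of variation over 34 rats were 13.4% and 10.5%. Within groups, the SD of log2 CPM was 0.13 for Mt-nd1, 0.15 for Mt-nd2, Mt-nd4l, Mt-nd4 and Mt-nd5, and 0.21 for Mt-nd3. The median over 11224 transcripts with a mean CPM of at least 10 was also 0.13, and over the 217 transcripts of at least 500 CPM it was 0.11.

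**Figure D2:**
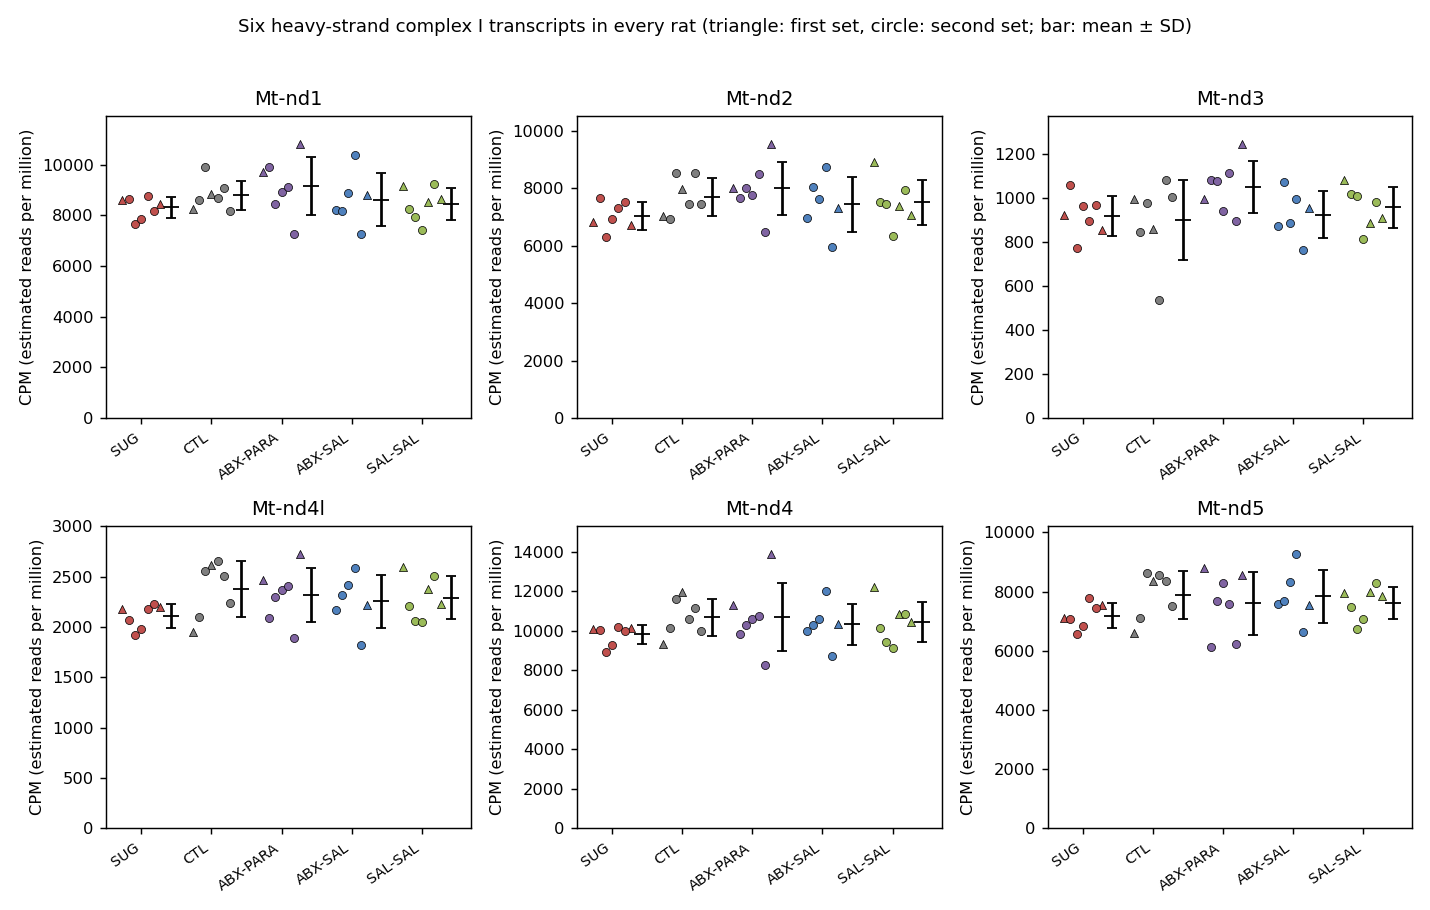
CPM of each transcript in every rat by group, with triangles for the first set of library labels, circles for the second set, and the group mean and SD as a bar with whiskers. In every panel the groups overlap, and CTL rat 5 stands low in Mt-nd3 at 536 CPM.

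Sugar. Experiment 1 asks whether early sugar intake alters hippocampal transcripts. Mean levels of 5 of the 6 transcripts were lower in SUG than in CTL rats, and no member passed the test. Across all transcripts, edgeR called 0 of 20865 at an adjusted p under 0.05 (0.0%), so that 0 of 6 members does not set them apart. At an unadjusted p under 0.05 edgeR found 1542 transcripts (7.39%), and 1 of 6 members. The median log2 fold change of the 6 was -0.12, against 0.00294 over all transcripts tested, of which 49.0% were below 0. The members share libraries and a precursor, so the sign they have in common does not count as 5 independent observations.

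Mt-nd4l had the lowest unadjusted p. Its levels were 1916, 2178 and 2224 CPM (lowest, median and highest) in SUG rats and 1947, 2509 and 2655 CPM in CTL rats. All 7 SUG rats were below the CTL median, and 1 was below the lowest CTL rat. Its log2 fold change was -0.17 (SE 0.073, 95% interval -0.32 to -0.01), and edgeR gave an unadjusted p of 0.0366 and an adjusted p of 0.664.

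Mt-nd4, an antiporter-like subunit of the proton-pumping arm, had 8946, 10039 and 10191 CPM in SUG rats and 9342, 10617 and 11966 CPM in CTL rats. Here too all 7 SUG rats were below the CTL median. The log2 fold change was -0.12 (SE 0.059, interval -0.25 to 0.01; edgeR adjusted p = 0.680). Mt-nd5, also antiporter-like, had 6559.8, 7091 and 7775 CPM in SUG rats against 6591, 8349 and 8634 CPM in CTL rats, again with 7 of 7 SUG rats below the CTL median. Its log2 fold change was -0.13 (SE 0.067, interval -0.27 to 0.01; edgeR adjusted p = 0.699).

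Mt-nd2, the third antiporter-like subunit, had 6315, 6929 and 7673 CPM in SUG rats and 6935, 7453 and 8550.2 CPM in CTL rats. In it 5 of 7 SUG rats were below the CTL median, and 4 were below the lowest CTL rat. The log2 fold change was -0.12 (SE 0.063, interval -0.26 to 0.01; edgeR adjusted p = 0.686). Mt-nd1 had 7677, 8460.3 and 8767 CPM in SUG rats and 8192, 8668 and 9896 CPM in CTL rats, with a log2 fold change of -0.08 (SE 0.050, interval -0.18 to 0.03; edgeR adjusted p = 0.771). The upper SUG rats of Mt-nd1 lay within the CTL range, while 3 lay below it, and without CTL rat 3, the highest CTL rat, the log2 fold change was -0.04.

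Mt-nd3 was the exception in sign, and that sign rested on single rats. Its levels were 774, 925 and 1058 CPM in SUG rats and 536, 979 and 1084 CPM in CTL rats, so that 6 of 7 SUG rats were below the CTL median although the SUG mean (920.5 ± 90.5 CPM) was above the CTL mean (900.6 ± 182 CPM, or 961 ± 92.4 CPM without CTL rat 5). The log2 fold change was 0.04 (SE 0.124, interval -0.23 to 0.30; edgeR adjusted p = 0.971). Without CTL rat 5, at 536 CPM, it was -0.06 (SE 0.077; edgeR adjusted p = 0.933, within 0.933 to 0.997 over the 14 rats left out in turn), and without SUG rat 2, the highest SUG rat, it was -0.00570. The lowest of the remaining CTL rats was CTL rat 2 with 845 CPM.

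Within the sets of library labels, given as values with no test, the SUG minus CTL difference in log2 CPM of Mt-nd4l was -0.05 in the first set (2 rats against 2) and -0.21 in the second (5 against 5). For Mt-nd4 the differences were -0.07 and -0.14, for Mt-nd5 -0.02 and -0.17, for Mt-nd2 -0.15 and -0.12, and for Mt-nd1 -0.00168 and -0.11. These 5 kept their sign in both sets. Mt-nd3 did not, with -0.06 in the first and 0.10 in the second set, which holds CTL rat 5.

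The number of members at an unadjusted p under 0.05 in this comparison moved with the processing. It was 1 with edgeR's TMM or RLE factors (1542 and 1514 of the 20865 transcripts tested), 4 when counts were scaled to the total of assigned reads alone (1500) or to the total without the members (1488), 3 with DESeq2 (1567) and 0 with the replicate number as a block (1506). With each rat left out it was between 0 and 4, with at most 1654 transcripts. No member was called at an adjusted p under 0.05 in any of these.

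**Figure D3:**
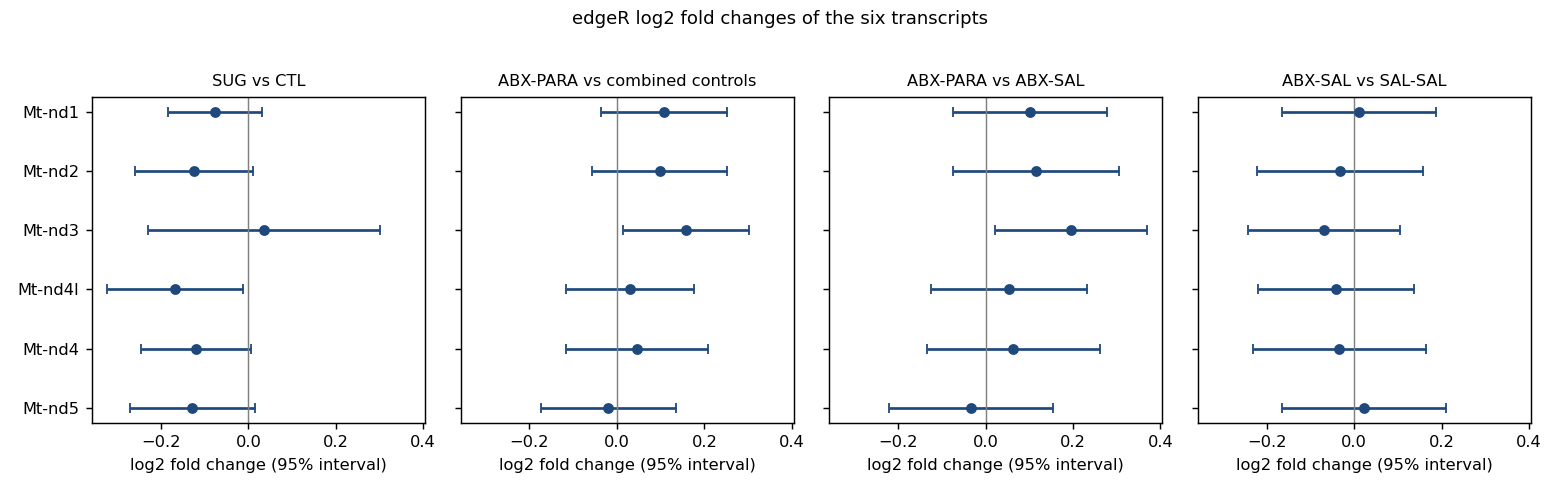
edgeR log2 fold change of each transcript (points) with its 95% interval (lines) in each treatment comparison, and a vertical line at 0. The SUG points lie below 0 for every transcript except Mt-nd3, and the ABX-PARA points against combined controls lie above 0 except for Mt-nd5.

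Parabacteroides. Experiment 2 asks whether enrichment with the bacteria alters the same tissue, with ABX-SAL and SAL-SAL rats combined as 13 controls. Of the 6 transcripts, 5 had a log2 fold change above 0, with a median of 0.07 against -0.00266 over all transcripts tested, of which 49.0% were above 0. edgeR called 0 of 20827 transcripts at an adjusted p under 0.05 (0.0%) and none of the members. At an unadjusted p under 0.05 it found 1658 transcripts (7.96%), and 1 of 6 members. With the replicate number as a block these were 876 transcripts and 0 members, and 3 of the 6 log2 fold changes (Mt-nd4l, Mt-nd4 and Mt-nd5) were then below 0. No other rat of Experiment 2 shares the number of ABX-PARA rat 8, so the block takes that rat out of the comparison. With each rat left out the number of transcripts ran from 1058 (without ABX-PARA rat 2) to 2554 (without ABX-PARA rat 7).

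That member was Mt-nd3. It had 895, 1079 and 1249 CPM (lowest, median and highest) in ABX-PARA rats, 766, 920.2 and 1073 CPM in ABX-SAL rats and 815, 983 and 1085 CPM in SAL-SAL rats. In 5 of 7 ABX-PARA rats the level was above the median of the controls, in 2 it was above the highest control, and the groups overlapped. The log2 fold change was 0.16 (SE 0.069, interval 0.01 to 0.30), with an unadjusted p of 0.0330 and an adjusted p of 0.592 by edgeR. Without ABX-PARA rat 8, which had the highest value, it was 0.12 (SE 0.069, edgeR adjusted p = 0.923), and without ABX-PARA rat 7, which had the lowest of its group, 0.20. Over the 20 rats left out in turn the adjusted p by edgeR ran from 0.292 to 0.956. Over the other alternatives it ran from 0.496 (DESeq2) to 0.999 (edgeR with the replicate block).

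Mt-nd1 had 7257, 9125 and 10836 CPM in ABX-PARA rats, 7263, 8518 and 10377 CPM in ABX-SAL rats and 7433, 8511 and 9253 CPM in SAL-SAL rats. The ABX-PARA rats spanned the whole range of the controls and passed it at both ends. The log2 fold change was 0.11 (SE 0.069, interval -0.04 to 0.25; edgeR adjusted p = 0.714). Mt-nd2 had 6483, 8002 and 9562 CPM in ABX-PARA rats, 5946, 7474 and 8758 CPM in ABX-SAL rats and 6351, 7440.3 and 8916 CPM in SAL-SAL rats, and 6 of 7 ABX-PARA rats were above the median of the controls. Its log2 fold change was 0.10 (SE 0.075, interval -0.06 to 0.25; edgeR adjusted p = 0.771). With each of the 20 rats left out in turn, the log2 fold change of Mt-nd1 ran from 0.07 (without ABX-PARA rat 8, the highest) to 0.16 (without ABX-PARA rat 7, the lowest), and that of Mt-nd2 from 0.06 to 0.15 with the same rats. Between 0 and 2 members then had an unadjusted p under 0.05 by edgeR, against 1058 to 2554 of all transcripts.

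For the 3 members at the far end of the precursor the log2 fold changes were nearer to 0, a contrast that was not tested. Mt-nd4l had 1886, 2363 and 2728 CPM in ABX-PARA rats, 1816, 2269 and 2585 CPM in ABX-SAL rats and 2054, 2231 and 2600.3 CPM in SAL-SAL rats, and its log2 fold change was 0.03 (SE 0.070, interval -0.12 to 0.18; edgeR adjusted p = 0.948). Mt-nd4 had 8266, 10596 and 13900.0 CPM in ABX-PARA rats, 8708, 10325 and 12002 CPM in ABX-SAL rats and 9145, 10428 and 12194 CPM in SAL-SAL rats, and its log2 fold change was 0.05 (SE 0.078, interval -0.12 to 0.21; edgeR adjusted p = 0.927). In both, the medians of the groups lay close together and the ABX-PARA range was the widest.

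Mt-nd5 had 6110.3, 7669 and 8791 CPM in ABX-PARA rats, 6632, 7619 and 9278 CPM in ABX-SAL rats and 6748, 7835 and 8279 CPM in SAL-SAL rats. It was the only member below 0, with a log2 fold change of -0.02 (SE 0.074, interval -0.17 to 0.13; edgeR adjusted p = 0.970). Single rats turned these small values: without ABX-PARA rat 7 the log2 fold changes of Mt-nd4l and Mt-nd4 were 0.08 and 0.10, without ABX-PARA rat 8 those of Mt-nd4l, Mt-nd4 and Mt-nd5 were -0.00693, -0.02 and -0.05, and that of Mt-nd5 was 0.03 without ABX-PARA rat 2 or rat 7 and 0.00725 without ABX-SAL rat 5.

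The sets of library labels also parted these differences. ABX-PARA minus controls in log2 CPM was 0.22 in the first set (2 rats against 4) and 0.13 in the second (5 against 9) for Mt-nd3, 0.22 and 0.05 for Mt-nd1, and 0.20 and 0.06 for Mt-nd2. For Mt-nd4l it was 0.14 and -0.02, for Mt-nd4 0.20 and -0.03, and for Mt-nd5 0.15 and -0.10. The first 3 members kept their sign and the last 3 did not.

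Antibiotics and bacteria apart. By the labels, ABX-SAL and SAL-SAL rats differed in the antibiotics alone, and ABX-PARA and ABX-SAL rats in the bacteria alone. By the design text of the series, SAL-SAL rats also had a longer course of saline. These comparisons share rats with each other and with the combined one, so their values are given side by side. For ABX-SAL against SAL-SAL the log2 fold changes were 0.01 for Mt-nd1 (interval -0.17 to 0.19), -0.03 for Mt-nd2 (-0.22 to 0.16), -0.07 for Mt-nd3 (-0.24 to 0.10), -0.04 for Mt-nd4l (-0.22 to 0.14), -0.03 for Mt-nd4 (-0.23 to 0.16) and 0.02 for Mt-nd5 (-0.16 to 0.21). With each of the 13 rats left out in turn the sign turned for 5 of the 6. Mt-nd1 ran from -0.05 to 0.06, Mt-nd2 from -0.09 to 0.03, Mt-nd4l from -0.09 to 0.02, Mt-nd4 from -0.08 to 0.02 and Mt-nd5 from -0.03 to 0.07, the lowest without ABX-SAL rat 5 and the highest without ABX-SAL rat 6, while Mt-nd3 stayed below 0 (-0.12 to -0.02). With all rats the adjusted p by edgeR was 0.999 for each member, and none had an unadjusted p under 0.05, against 830 of 20827 transcripts (3.99%, and 0.0% after adjustment). That number was 1403 with limma quality weights, and with each rat left out it ran from 618 (without SAL-SAL rat 5) to 1327 (without SAL-SAL rat 6), with 0 members in each.

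For ABX-PARA against ABX-SAL, Mt-nd3 had a log2 fold change of 0.20 (SE 0.083, interval 0.02 to 0.37), with an unadjusted p of 0.0292 and an adjusted p of 0.715 by edgeR. In it 6 of 7 ABX-PARA rats were above the ABX-SAL median, and 4 were above the highest ABX-SAL rat. Without ABX-PARA rat 8 the log2 fold change of Mt-nd3 was 0.16, with an unadjusted p of 0.0734 and an adjusted p of 0.909 by edgeR (0.435 to 0.966 over the 13 rats left out in turn). The other members had log2 fold changes of 0.10 (Mt-nd1, interval -0.08 to 0.28), 0.12 (Mt-nd2, -0.07 to 0.30), 0.05 (Mt-nd4l, -0.12 to 0.23), 0.06 (Mt-nd4, -0.13 to 0.26) and -0.03 (Mt-nd5, -0.22 to 0.16). With each of the 13 rats left out in turn, Mt-nd1 ran from 0.05 to 0.17, Mt-nd2 from 0.06 to 0.17, Mt-nd3 from 0.15 to 0.25, Mt-nd4l from -0.00348 to 0.10, Mt-nd4 from -0.00400 to 0.12 and Mt-nd5 from -0.08 to 0.03. The lowest value came without ABX-SAL rat 6 for all but Mt-nd4 (ABX-PARA rat 8), and the highest without ABX-SAL rat 5 for all but Mt-nd3 (ABX-SAL rat 3) and Mt-nd4 (ABX-PARA rat 7). In this comparison 1439 of 20827 transcripts (6.91%) had an unadjusted p under 0.05 and 0 (0.0%) passed after adjustment. With the replicate block, which takes out ABX-PARA rat 8, Mt-nd1 was 0.03, Mt-nd2 0.02, Mt-nd3 0.12, Mt-nd4l -0.03, Mt-nd4 -0.06 and Mt-nd5 -0.10, so that Mt-nd4l and Mt-nd4 turned. The block left 810 transcripts and 0 members with an unadjusted p under 0.05, and with each rat left out between 994 (without ABX-PARA rat 2) and 2139 (without ABX-PARA rat 7) transcripts and 0 or 1 members. Against SAL-SAL rats alone, Mt-nd3 had a log2 fold change of 0.13 in ABX-PARA rats (SE 0.080; edgeR adjusted p = 0.808).

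Sugar against Parabacteroides. Whether the effects of the treatments differed was tested as the SUG minus CTL change less the ABX-PARA minus control change, over 34 rats. Sugar and bacteria were given in separate experiments that also differed in age and handling, and the bacteria followed antibiotics. A difference of treatment effects cannot be told apart from these. All 6 members had a value below 0, with a median of -0.18 against -0.00589 over all transcripts tested, of which 51.4% were below 0. The value was -0.23 for Mt-nd2 (SE 0.107, interval -0.45 to -0.02), the 1 member with an unadjusted p under 0.05 by edgeR (0.0368; adjusted p = 0.601). It was -0.21 for Mt-nd4l (interval -0.43 to 0.01), -0.19 for Mt-nd1 (-0.39 to 0.00249), -0.17 for Mt-nd4 (-0.40 to 0.05), -0.13 for Mt-nd3 (-0.42 to 0.15) and -0.12 for Mt-nd5 (-0.33 to 0.10). The number of members at an unadjusted p under 0.05 was 3 with limma quality weights (Mt-nd1, Mt-nd2 and Mt-nd4l; 2096 of all transcripts), 2 with the label set in the model (Mt-nd1 and Mt-nd2; 1762 of all transcripts), 0 with the replicate block and between 0 and 4 with each rat left out. With the replicate block, which takes out ABX-PARA rat 8, Mt-nd2 was -0.15 (unadjusted p = 0.168 by edgeR) and Mt-nd3 was -0.04. With each rat left out in turn all stayed below 0. Mt-nd3 ran from -0.22 (without CTL rat 5, unadjusted p = 0.0489 by edgeR) to -0.08 (without CTL rat 6), Mt-nd4 from -0.23 (without ABX-PARA rat 7) to -0.10 (without ABX-PARA rat 8) and Mt-nd5 from -0.16 (without ABX-PARA rat 2) to -0.07 (without ABX-PARA rat 1). edgeR found 1693 of 20909 transcripts (8.1%) at an unadjusted p under 0.05, and 0 (0.0%) after adjustment. The number was 1010 with the replicate block, and at most 2503 (without ABX-PARA rat 7) with each rat left out.

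Order of the groups. On log2 CPM, ABX-PARA had the highest mean of Mt-nd1, Mt-nd2 and Mt-nd3, and CTL that of Mt-nd4l, Mt-nd4 and Mt-nd5. For Mt-nd4 the top place depended on the scale, since the mean CPM without logs was 10700 in ABX-PARA and 10691 in CTL rats. SUG had the lowest mean of every member but Mt-nd3, in which CTL, with CTL rat 5, was lowest. No neighbours in these orders differed by more than the pooled SD within groups. From the top to the bottom of the order the gap was 0.13 for Mt-nd1, 0.18 for Mt-nd2, 0.25 for Mt-nd3, 0.17 for Mt-nd4l, 0.12 for Mt-nd4 and 0.13 for Mt-nd5, against pooled SDs between 0.13 (Mt-nd1) and 0.21 (Mt-nd3). Single rats moved these gaps and turned the order. Without ABX-PARA rat 8 the gap was 0.09 for Mt-nd1, 0.13 for Mt-nd2 and 0.20 for Mt-nd3, none above the pooled SD without that rat (0.12, 0.14 and 0.20). The Mt-nd1 gap, 0.134 against an SD of 0.133 with all rats, was also no longer above it without many other single rats of all groups. That of Mt-nd4l was not above it without SUG rat 3 or 4, or CTL rat 3, 4, 5 or 6. Those of Mt-nd4 and Mt-nd5, below it with all rats, were above it without CTL rat 1, among others. Without ABX-PARA rat 7 ABX-PARA had the highest mean of Mt-nd4l and Mt-nd4, and without ABX-PARA rat 2 that of Mt-nd4. Without CTL rat 3, rat 4 or rat 6 ABX-PARA had the highest mean of Mt-nd4 and ABX-SAL that of Mt-nd5. ABX-SAL also had the highest mean of Mt-nd5 without CTL rat 5, or without ABX-SAL rat 2, rat 6 or rat 7. Without CTL rat 5 the lowest mean of Mt-nd3 was that of SUG. The lowest mean of Mt-nd1 was that of SAL-SAL without SAL-SAL rat 6, and that of ABX-SAL without ABX-SAL rat 5. The experiments differed in age and handling, and levels were not tested between them.

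The sets of library labels. With treatment in the model, all 6 members were lower in the second set. Their median log2 fold change was -0.07, against 0.00419 over all transcripts tested, of which 48.1% were below 0. The members share libraries and a precursor, so their common sign does not count as 6 independent observations. Mt-nd4 had the largest such difference among them, -0.13 (SE 0.054, interval -0.24 to -0.02; edgeR unadjusted p = 0.0189, adjusted p = 0.339). The others lay between -0.08 (Mt-nd4l, interval -0.20 to 0.03) and -0.04 (Mt-nd2, interval -0.16 to 0.08). With each rat left out all 6 stayed below 0. The values nearest to 0 were -0.06 for Mt-nd1, -0.00781 for Mt-nd2, -0.00922 for Mt-nd3, -0.06 for Mt-nd4l and -0.09 for Mt-nd4 (unadjusted p = 0.0858 by edgeR), all without ABX-PARA rat 8, and -0.04 for Mt-nd5 without ABX-PARA rat 1. The values farthest from 0 were -0.10 for Mt-nd1, -0.06 for Mt-nd2, -0.12 for Mt-nd4l, -0.17 for Mt-nd4 and -0.10 for Mt-nd5, all without CTL rat 1, and -0.06 for Mt-nd3 without SUG rat 7. edgeR called 125 of 20909 transcripts between the sets (0.598%), none of them a member, and 2118 (10.1%) had an unadjusted p under 0.05, among them 1 of the 6 members.

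How the members varied together. Pearson's r was taken between members over 34 rats, on log2 CPM as deviations from the group means. The points share library, depth and scaling, and r is given as a description. The pair on a shared messenger, Mt-nd4l and Mt-nd4, had the highest r, 0.92, followed by 0.91 for Mt-nd4l with Mt-nd5 and 0.87 for Mt-nd1 with Mt-nd4 and for Mt-nd2 with Mt-nd4. Mt-nd3 had lower values, with r = 0.62 with Mt-nd2, 0.41 with Mt-nd1, 0.38 with Mt-nd4, 0.18 with Mt-nd4l and 0.08 with Mt-nd5. Without CTL rat 5 these were 0.80, 0.54, 0.52, 0.48 and 0.29 in the same order. The first of these was above the values for Mt-nd1 with Mt-nd5 (0.70) and Mt-nd2 with Mt-nd5 (0.72), and the other 4 were below those of all pairs without Mt-nd3.

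For Mt-nd3, r was lower in Experiment 1 (14 rats) than in Experiment 2 (20 rats) with each of the other 5, a difference that was not tested. It was 0.19 and 0.65 with Mt-nd1, 0.43 and 0.88 with Mt-nd2, -0.27 and 0.65 with Mt-nd4l, 0.06 and 0.69 with Mt-nd4, and -0.20 and 0.35 with Mt-nd5. Without CTL rat 5 the values in Experiment 1 were 0.25, 0.63, 0.13, 0.09 and 0.16 in the same order, so both negative values rested on that rat. Mt-nd4l and Mt-nd4 had r = 0.88 in Experiment 1 and 0.95 in Experiment 2. The order of the highest pairs differed by experiment, since Mt-nd4l with Mt-nd5 had 0.96 in Experiment 1, above the pair on a shared messenger, and 0.89 in Experiment 2.

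**Figure D4:**
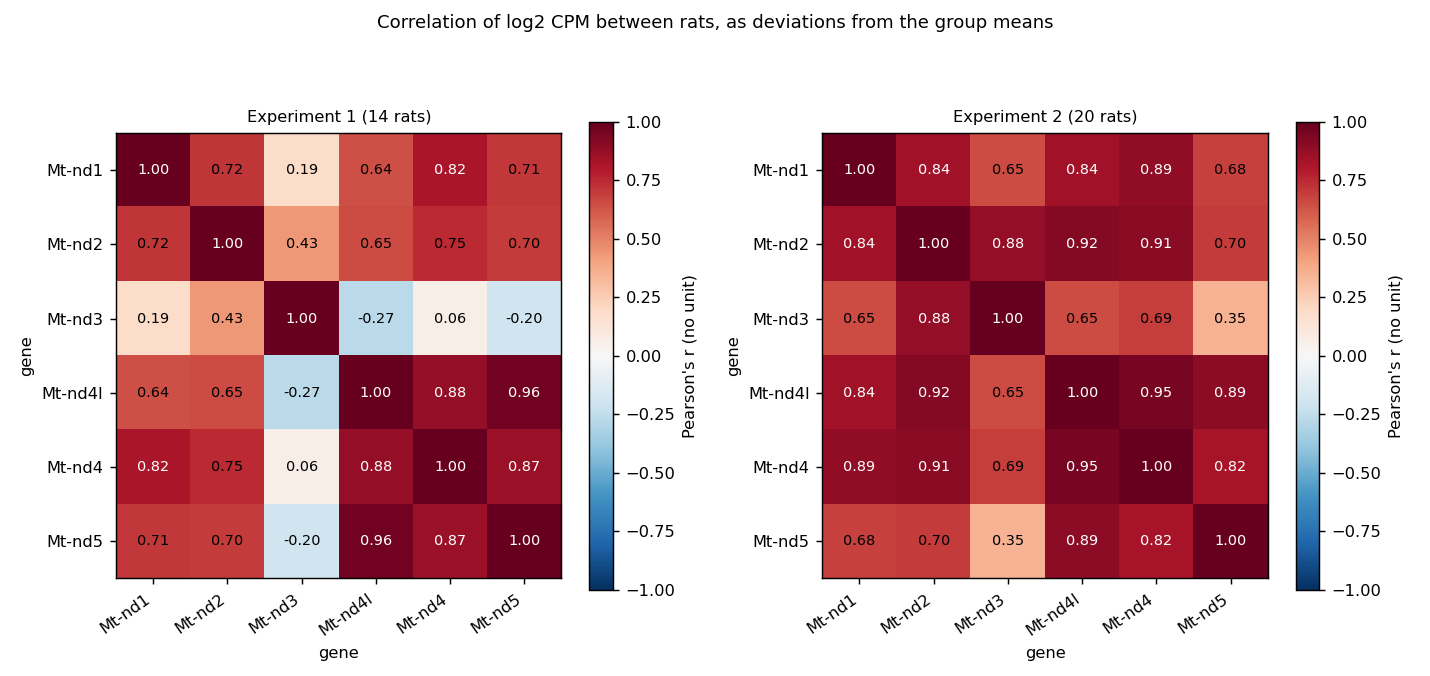
Pearson's r between the 6 transcripts over the rats of Experiment 1 (left, 14 rats) and Experiment 2 (right, 20 rats), from log2 CPM as deviations from the group means, with colour from blue (-1) to red (1). In the Mt-nd3 row, r lies between -0.27 and 0.43 in Experiment 1 and between 0.35 and 0.88 in Experiment 2.

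By the same measure, each of 11218 other transcripts with a mean CPM of at least 10 was set against the mean deviation of the 6 members. The median r was -0.11, and 5 transcripts were above 0.8 and 6 below -0.8. The highest were ENSRNOT00000049683.3 (r = 0.95, 9767 CPM) and ENSRNOT00000043693.3 (r = 0.91, 7689 CPM), whose names the files do not give. The lowest were ENSRNOT00000017805.7 (r = -0.87, 149.7 CPM) and ENSRNOT00000009870.6 (r = -0.85, 389 CPM).

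The balance within a rat. A difference of log2 levels per kilobase between members of the same library does not depend on how the library is scaled, but it does depend on how length is counted. Mt-nd4l minus Mt-nd4 was 0.02 ± 0.06 (SD, n = 34), from -0.14 in ABX-PARA rat 8 to 0.21 in CTL rat 5. Its group means lay between -0.00624 (SUG) and 0.04 (CTL, 0.00926 without CTL rat 5), and every group spanned 0 on this scale. Per start position the difference was 0.35 ± 0.06 and above 0 in 34 of 34 rats, from 0.20 to 0.55, since that scale moves every rat up by 0.33. It moves Mt-nd3 minus the mean of the other 5 up by 0.19 and Mt-nd5 minus Mt-nd1 by -0.06 in every rat, which leaves differences between rats and groups as they are. Mt-nd3 minus the mean of the other 5 was -1.34 ± 0.21, from -2.25 in CTL rat 5 to -1.09 in ABX-PARA rat 2. Its mean was -1.24 ± 0.13 in ABX-PARA rats and -1.35 ± 0.12 in the 13 controls, with overlapping ranges. It was -1.30 ± 0.12 in SUG and -1.48 ± 0.38 in CTL rats, or -1.36 ± 0.18 in CTL rats without CTL rat 5, and these ranges overlapped too.

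Mt-nd5 minus Mt-nd1, the far end of the precursor against the near end, was -1.13 ± 0.12 over 34 rats. It was -1.15 ± 0.06 in SUG, -1.10 ± 0.11 in CTL, -1.08 ± 0.05 in ABX-SAL and -1.09 ± 0.06 in SAL-SAL rats. In ABX-PARA rats it was -1.21 ± 0.20, with -1.64 in ABX-PARA rat 2 and -1.05 in the highest rat. Without ABX-PARA rat 2 it was -1.14 ± 0.09. ABX-PARA rat 2 had 6110.3 CPM of Mt-nd5, the lowest of all rats, and 9928 CPM of Mt-nd1, the second highest of its group.

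**Figure D5:**
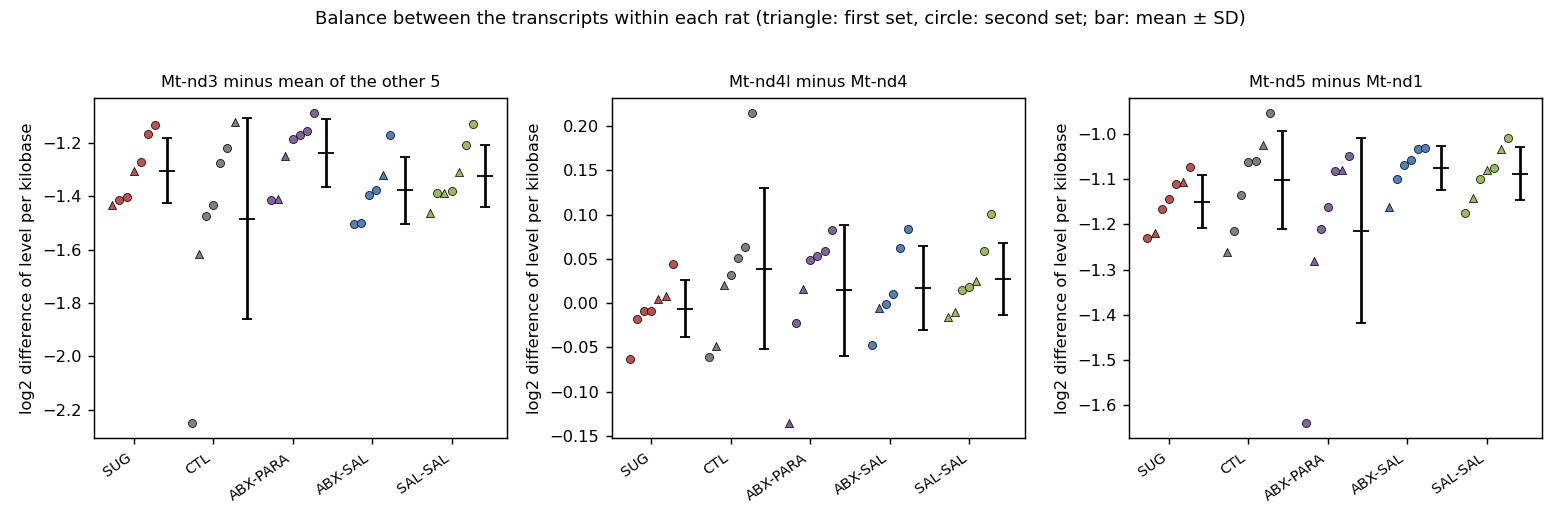
Differences of log2 level per kilobase between members within each rat, by group, with triangles for the first set of library labels, circles for the second set, and the group mean and SD as a bar with whiskers. CTL rat 5 stands apart at -2.25 in the left panel and 0.21 in the middle one, and ABX-PARA rat 2 at -1.64 in the right one.

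A property of whole libraries moved with some of these values. For each rat, the slope of log2 level on log2 transcript length was taken as a deviation from the mean library, over the 11224 transcripts with a mean CPM of at least 10. It was -0.03 ± 0.04 per doubling of length in ABX-PARA rats and 0.00647 ± 0.01 in the 13 controls, and lowest in ABX-PARA rat 8 (-0.09) and ABX-PARA rat 2 (-0.06). Over 34 rats, with all values as deviations from the group means, r of the level with this slope was -0.35 for Mt-nd1 and Mt-nd2, -0.53 for Mt-nd3, -0.05 for Mt-nd4l, -0.31 for Mt-nd4 and 0.18 for Mt-nd5. Among the balances it was 0.64 for Mt-nd5 minus Mt-nd1, 0.62 for Mt-nd4l minus Mt-nd4 and -0.42 for Mt-nd3 minus the mean of the other 5. Without ABX-PARA rat 8, which had the lowest slope, r was -0.50 for Mt-nd3, -0.16 for Mt-nd1, -0.18 for Mt-nd2, 0.20 for Mt-nd4l, 0.03 for Mt-nd4 and 0.43 for Mt-nd5, and 0.73, 0.46 and -0.54 for the balances in the order above. With log2 depth, r of the level was -0.53 for Mt-nd3 and between -0.27 (Mt-nd2) and -0.03 (Mt-nd5) for the others. Without CTL rat 5, the deepest library and the lowest in Mt-nd3, it was -0.27 for Mt-nd3 and between -0.28 (Mt-nd2) and -0.14 (Mt-nd5) for the others. With each library's length trend removed, the log2 fold change of Mt-nd3 in ABX-PARA rats against combined controls was 0.13 (SE 0.063; edgeR adjusted p = 0.692), against 0.16 without that step. The same step moved Mt-nd1 from 0.11 to 0.08, Mt-nd2 from 0.10 to 0.07, Mt-nd4l from 0.03 to 0.00962, Mt-nd4 from 0.05 to 0.02 and Mt-nd5 from -0.02 to -0.03, all with edgeR adjusted p of 0.832 or more. The part of length in the balances and of depth in all these values was not tested.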

How the data were processed

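Total RNA from 34 rats was made into messenger libraries and sequenced as single 75-base reads. The authors trimmed reads (Trim Galore, checked with FastQC), estimated transcript abundance by Salmon on the rat Rnor6 annotation, and removed 1 control and 1 treated sample as outliers. The deposited values are estimated counts per transcript, which are not whole where reads fit several transcripts. The deposited TPM values were not used. Groups were taken from the labels.

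Counts were rounded and tested per transcript with edgeR 4.0.16 (R 4.3.3, quasi-likelihood F-test, TMM), keeping transcripts with a count above 1 in over 50% of the rats fitted (all 20 rats of Experiment 2 for each of its comparisons), with Benjamini-Hochberg adjustment over all transcripts and a threshold of 0.05. Levels are CPM of all assigned reads, without TMM. Intervals are 95%. The procedure was tested on simulated data. Alternatives were DESeq2 1.42.0, limma 3.58.1 (voom with quality weights), other scalings and filters, the label set, the replicate number as a block, removal of a length trend, and each rat left out.

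The members and lists were chosen with earlier results of these data known. All 6 members are named in every comparison. The other named transcripts are the 2 highest and 2 lowest in correlation, and Mt-nd4l's partner was named after its values were seen. Lists of nuclear complex I genes and of cell type markers were not analysed here, since identifiers were not paired with names.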

Additional observations from a re-analysis of the deposited data

Results flagged for a closer look

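In ABX-PARA rats, Mt-nd5 minus Mt-nd1 (difference of log2 levels per kilobase) was -1.64 in ABX-PARA rat 2, farther from the other 6 rats of the group than Dixon's 95% criterion allows. It was 1 such value among 55 groups of values looked at, of which chance gives 2.75. No explanation was tested.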

How the results depend on the processing

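No member was called in any comparison under any alternative. Of 1122 log2 fold changes of members under alternatives, 1095 kept their direction and 27 changed it. The cause was not tested. With DESeq2, 19 transcripts were called for SUG against CTL, 13 for ABX-PARA against combined controls, 2 for ABX-SAL against SAL-SAL, 5 for the difference of effects and 332 for the label set, against 0, 0, 0, 0 and 125 with edgeR. With each rat left out these counts ran from 0 to 1 for SUG against CTL (1 without SUG rat 6 or CTL rat 7), from 0 to 1 for the difference of effects (1 without ABX-PARA rat 4 or CTL rat 2) and from 62 (without CTL rat 1) to 194 (without ABX-PARA rat 2) for the label set.

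Number 8 of Experiment 2 belongs only to ABX-PARA rat 8, so the replicate block takes that rat out of comparisons with ABX-PARA. Leaving that rat out without the block gave -0.00693 for Mt-nd4l and -0.022 for Mt-nd4 against combined controls. Against ABX-SAL the values were then 0.016 and -0.00400. The replicate block turned Mt-nd4l to -0.040 and Mt-nd4 to -0.059 for ABX-PARA against combined controls, and to -0.031 and -0.059 against ABX-SAL. For ABX-PARA against combined controls it also moved Mt-nd1 to 0.046, Mt-nd2 to 0.020, Mt-nd3 to 0.089 (unadjusted p = 0.175 by edgeR), Mt-nd5 to -0.078 and the median of the members from 0.072 to -0.010. Against ABX-SAL it moved Mt-nd1 to 0.029, Mt-nd2 to 0.024, Mt-nd3 to 0.12 (unadjusted p = 0.132 by edgeR) and Mt-nd5 to -0.10. For the difference of effects the median of the members went from -0.18 to -0.095, with Mt-nd1 at -0.13, Mt-nd2 at -0.15, Mt-nd3 at -0.039, Mt-nd4l at -0.13, Mt-nd4 at -0.064 and Mt-nd5 at -0.050. With the block, transcripts at an unadjusted p under 0.05 went from 1542 to 1506 for SUG against CTL, from 1658 to 876 for ABX-PARA against combined controls and from 1693 to 1010 for the difference of effects. Same-numbered SUG and CTL rats had a median correlation of 0.04, over 0.1 in 1 of 7, and 1 of 7 correlated best with its own number. Those of ABX-PARA and ABX-SAL had a median of 0.097 and a highest value of 0.21, with 2 of 5 over 0.1 and 2 of 5 best with their own number, and no pair of ABX-PARA and SAL-SAL rats was over 0.1 (0 of 6). The labels name nothing that a number shares, so the rats share only a number. With the label set in the model, for ABX-SAL against SAL-SAL Mt-nd4 was 0.025, Mt-nd1 0.048, Mt-nd2 -0.00234, Mt-nd3 -0.052, Mt-nd4l -0.00305 and Mt-nd5 0.061, and the median of the members went from -0.033 to 0.011. For ABX-PARA against ABX-SAL Mt-nd1 was then 0.082, Mt-nd2 0.099, Mt-nd3 0.19, Mt-nd4l 0.033, Mt-nd4 0.031 and Mt-nd5 -0.054.

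With each rat left out, Mt-nd3 ran from -0.062 to 0.082 for SUG against CTL. For ABX-PARA against combined controls, Mt-nd4l ran from -0.00693 to 0.078, Mt-nd4 from -0.022 to 0.10 and Mt-nd5 from -0.058 to 0.027. Against ABX-SAL they ran from -0.00348 to 0.10, from -0.00400 to 0.12 and from -0.078 to 0.027. For ABX-SAL against SAL-SAL, Mt-nd1 ran from -0.051 to 0.061, Mt-nd2 from -0.087 to 0.029, Mt-nd3 from -0.12 (without ABX-SAL rat 3) to -0.016 (without ABX-SAL rat 6), Mt-nd4l from -0.087 to 0.018, Mt-nd4 from -0.084 to 0.015 and Mt-nd5 from -0.034 to 0.071. Counting error was under 1% of each level, and what depth otherwise adds was not tested.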
